A study of Mus musculus with 6 samples.

Results

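The genes described here encode, from the nucleus, the subunits of the mitochondrial oxidative phosphorylation system. They were taken from the count table by gene symbol, as every row beginning with Nduf, Uqcr, Cox4, Cox5, Cox6, Cox7, Cox8 or Atp5, together with Sdha, Sdhb, Sdhc, Sdhd, Cyc1 and Cycs. The rule gave 95 genes of 24028, and 90 of them had enough counts to be tested. The symbols also bring in 8 assembly factors of complex I (Ndufaf), the assembly factor Atp5sl and Atp5s, a regulator of the ATP synthase. Ndufa4 and Ndufa4l2 are counted here with complex IV, to which the Ndufa4 protein belongs.

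All 6 libraries came from 1 clone of C2C12, an immortalised mouse myoblast line, kept under puromycin and carrying a doxycycline-inducible, codon-altered transgene named MMH6. Its product, MMH, has the DNA-binding homeodomains of mouse Dux, a transcription factor of the early embryo, and the C-terminal part of human DUX4. Polyadenylated RNA was sequenced from 3 cultures without doxycycline (uninduced) and 3 given 2 µg/ml doxycycline (induced), for 18 h by the series description or 36 h by the sample protocol. No culture with the drug but without the transgene was analysed here, so drug and transgene cannot be told apart.

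Oxidative phosphorylation passes electrons from NADH through complex I, or from succinate through complex II, to ubiquinone, then through complex III and cytochrome c to complex IV, which reduces oxygen. The proton gradient built by complexes I, III and IV drives complex V, the ATP synthase. Every complex but the second joins subunits encoded in the nucleus to subunits encoded in mitochondrial DNA, and muscle uses the pathway heavily. Factors such as NRF1, the ETS factor GABPA and YY1 are known to bind at promoters of many of the nuclear genes.

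Promoter windows of RefSeq on GRCm38.p6, from 250 bases before to 50 bases after the start, were found for 78 of the 95 genes, in 84 windows. The windows of 4 genes are shown, up to the start and without the bases after it, because these genes carry the contrasts described further on. Sdhd had the largest fall but for the scarce Atp5s, Atp5g2 the largest fall of the c-ring genes, Atp5b rose, and Cycs was not called. Capitals mark the core motifs searched on both strands, which were GCGCATGC for NRF1, CCGGAAG for ETS factors, AAGATGGC for YY1 and TGATTNNAT for a Dux-type homeodomain pair.
Sdhd, chr9:50603850-50604099, minus strand: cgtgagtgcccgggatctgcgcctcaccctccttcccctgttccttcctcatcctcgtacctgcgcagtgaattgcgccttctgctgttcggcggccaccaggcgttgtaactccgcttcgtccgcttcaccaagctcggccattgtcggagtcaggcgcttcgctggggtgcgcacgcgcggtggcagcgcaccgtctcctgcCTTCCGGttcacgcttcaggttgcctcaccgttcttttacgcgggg
Atp5g2, chr15:102671048-102671297, minus strand: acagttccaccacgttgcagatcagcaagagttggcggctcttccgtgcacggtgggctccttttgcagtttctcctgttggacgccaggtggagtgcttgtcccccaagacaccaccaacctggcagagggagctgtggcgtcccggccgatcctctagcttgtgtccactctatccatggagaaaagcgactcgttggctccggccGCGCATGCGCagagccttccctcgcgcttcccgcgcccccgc
Atp5b, chr10:128083057-128083306, plus strand: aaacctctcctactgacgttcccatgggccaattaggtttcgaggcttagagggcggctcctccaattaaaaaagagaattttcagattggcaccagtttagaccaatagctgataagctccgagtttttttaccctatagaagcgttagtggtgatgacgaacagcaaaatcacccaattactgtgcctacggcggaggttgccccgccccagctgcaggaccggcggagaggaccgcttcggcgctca
Cycs, chr6:50566570-50566819, minus strand: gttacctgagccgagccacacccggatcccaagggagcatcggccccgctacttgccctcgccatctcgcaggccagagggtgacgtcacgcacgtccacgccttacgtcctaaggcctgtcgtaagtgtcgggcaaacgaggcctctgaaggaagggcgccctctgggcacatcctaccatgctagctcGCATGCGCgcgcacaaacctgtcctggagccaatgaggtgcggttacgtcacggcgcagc
The Sdhd window holds an ETS core, the Atp5g2 and Cycs windows an NRF1 core, and the Atp5b window none of the cores in these letters. Matches to an NRF1 core on opposite strands overlap in Atp5g2.

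Over the 84 windows of 300 bases, 15.5% held the NRF1 core, 15.5% the YY1 core, 21.4% the ETS core and 1.19% the Dux-type core. The same cores were in 4.98%, 4.28%, 16.9% and 1.46% of the 13104 windows of all tested genes, and in 2.71%, 2.75%, 8.86% and 3.0% of all 32851 windows. The Dux-type core was found at Cox7c alone. A match describes letters, and binding was not measured here. Median log2 fold changes were -0.22 for the 13 tested genes with an NRF1 core and -0.38 for the 63 without it. They were -0.58 for 12 with and -0.34 for 64 without a YY1 core, and -0.52 for 18 with and -0.34 for 58 without an ETS core. Whether genes with and without a core differ was not tested, and such medians were not taken over all tested genes.

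Libraries held 21.5 to 24.5 M counts. Myoblast markers were present, with 4 of 5 tested lower, 3 of these at least 2-fold, and 1 higher (median log2 fold change -1.23). Their summed level, most of it from Vim, was between 5314 and 5656 CPM without doxycycline and between 6695 and 7128 CPM with it. Pax7, a marker of muscle stem cells, had 0 to 2 counts per uninduced and 3 to 4 per induced library. Of 21 listed markers of adipocytes, neurons, macrophages, endothelium and epithelium, 6 had enough counts to be tested, 4 of these were higher, among them Fabp4 (0.466 ± 0.103 to 7.06 ± 0.791 CPM; SD, n = 3), and Ucp1 had no count. Their part in the results was not tested. Levels are CPM, counts relative to the TMM-scaled library size. TMM sets a trimmed mean of the log2 changes level between libraries, and single genes can still differ. Its factors were 1.39 to 1.40 in uninduced and 0.71 to 0.72 in induced libraries. A fall or rise is therefore relative to the other genes, and in bulk RNA fewer cells and less RNA per cell cannot be told apart.

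Most nuclear oxidative phosphorylation genes were modestly lower in induced cells. Of the 90 tested, 61 were lower, 8 higher and 21 not called by edgeR's quasi-likelihood test at a Benjamini-Hochberg adjusted p of 0.05. Among all 12969 tested genes 82.5% were called, 41.2% lower and 41.3% higher, against 67.8% lower and 8.89% higher here. The median log2 fold change was -0.35, and it was -0.01 over all tested genes. At least 1.5-fold falls were called for 26 of the 90 genes, 28.9% against 24.5% of all tested genes. At least 2-fold falls were called for Sdhd and Atp5s, 2.22% against 12.7%. The 3 induced libraries were all below the 3 uninduced ones for 64 genes and all above for 8, against backgrounds of 41.7% and 41.5% of tested genes. As a share of all counts, the 95 genes together made up 1.16%, 1.20% and 1.24% in the uninduced libraries and 0.545%, 0.525% and 0.549% in the induced ones. These shares are of raw counts, without TMM scaling, so they also carry the shift of all genes given below.

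**Figure D1:**
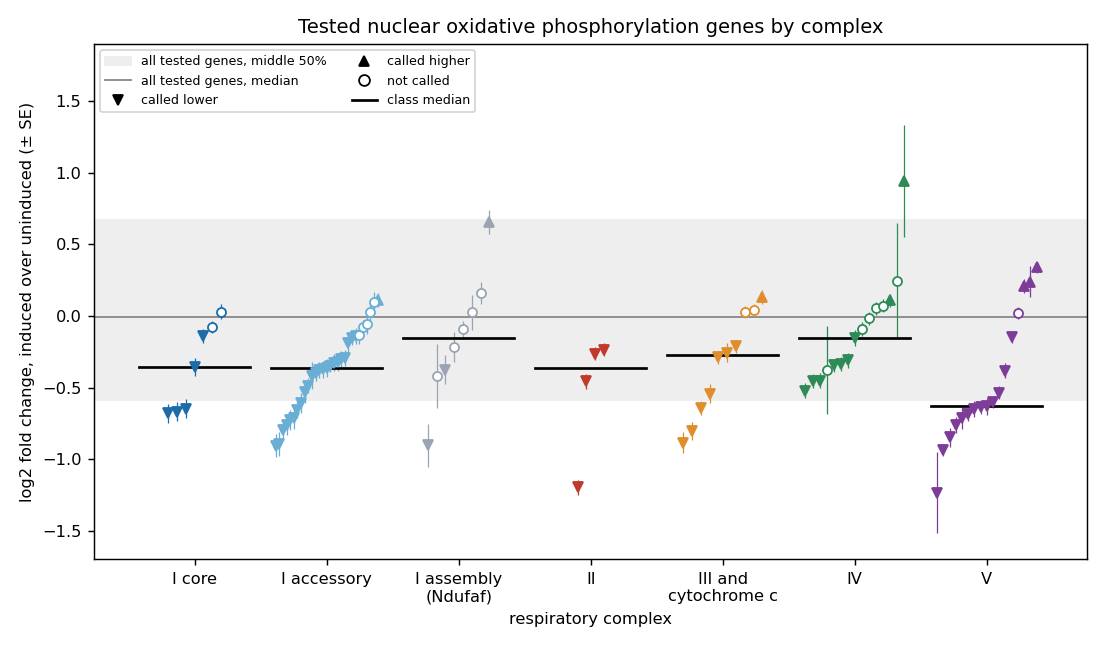
Log2 fold change (induced over uninduced, ± SE, vertical axis) of each of the 90 tested genes by complex (horizontal axis), with downward triangles called lower, upward triangles called higher and open circles not called; black bars are class medians, the grey line and band the median and middle 50% of all tested genes. Class medians run from -0.15 in complex IV to -0.63 in complex V, and Sdhd stands apart within complex II.

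RLE scaling kept 60 of the 61 lower and all 8 higher calls. Upper-quartile and library-size scaling move all tested genes down together, so under them lower calls could only hold and higher calls only weaken. Scaled by library size alone, all tested genes had a median of -0.97 and the 90 genes one of -1.31, with 88 lower and 0 higher. Upper-quartile scaling gave 74 lower and 2 higher, with medians of -0.16 over all tested genes and -0.49 here. The distance of the members' median from that of all tested genes was -0.33 with TMM and -0.34 with library size, and 71 of 90 lay below the median of all genes in either case. Of the 8 genes called higher, Ndufaf1 and Atp5b kept the call with upper-quartile scaling and Ndufb11, Uqcrfs1, Cox4i1, Cox7b2, Atp5h and Atp5sl did not, and the same genes but Atp5h lost it with no filter on low counts.

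**Figure D2:**
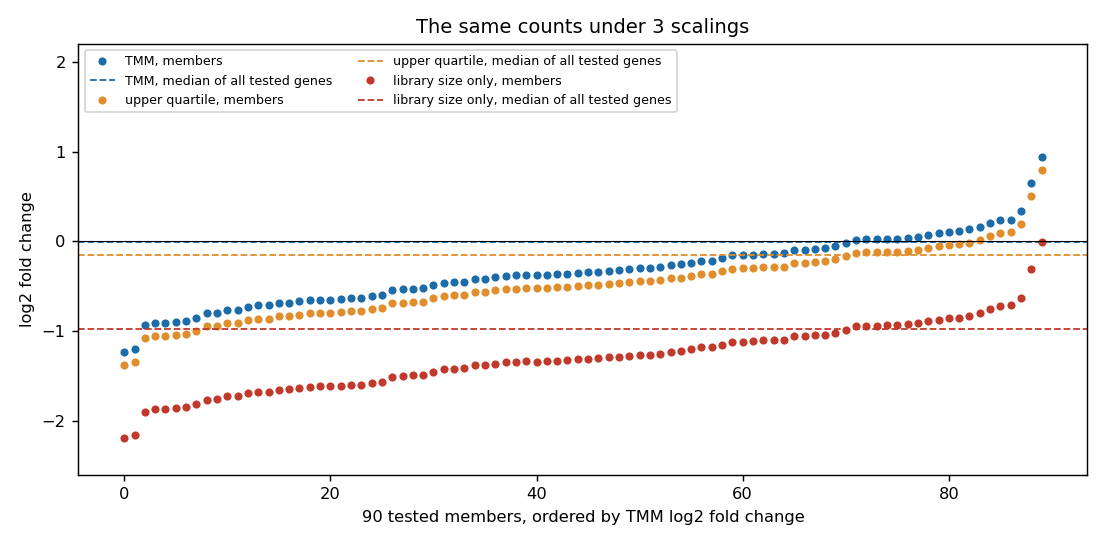
Log2 fold change (vertical axis) of the 90 tested genes, ordered by their TMM value (horizontal axis), under TMM, upper-quartile and library-size scaling; dashed lines are the median of all tested genes under each. The points shift with the line, and with library size alone none of the 90 genes is called higher and 88 are called lower.

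Complex I, the NADH dehydrogenase, was lower in most of its parts. Its 7 nuclear core subunits, which carry the redox centres, showed 5 lower, 0 higher and 2 not called, with a median log2 fold change of -0.36. The subunits Ndufs7 and Ndufs8, which hold iron-sulphur clusters near the ubiquinone site, fell the most. Ndufs8 had 41.1, 45.2 and 46.7 CPM in uninduced and 26.0, 27.8 and 29.2 CPM in induced libraries. Its groups did not overlap, and the log2 change was -0.68 ± 0.06 (SE, edgeR adjusted p = 8.24e-10). Ndufs7 went from 43.8 ± 2.94 to 27.5 ± 2.01 CPM (SD, n = 3), or -0.67 ± 0.07 on the log2 scale. Against these, the larger core subunits Ndufv1 and Ndufs1 were at 0.03 and -0.08 and were not called, so the core was not lowered evenly.

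The accessory subunits of complex I, which surround the core, included 23 of 29 that were lower and 1 that was higher, with a median of -0.36. Ndufc2, a membrane-arm subunit, had 35.1, 37.7 and 39.5 CPM in uninduced and 22.5, 16.6 and 20.6 CPM in induced libraries. The lowest uninduced library was well above the highest induced one, and the log2 change was -0.91 ± 0.08 (SE, edgeR adjusted p = 1.84e-09). Ndufb3 fell from 22.6 ± 1.87 to 12.1 ± 0.516 CPM (SD, n = 3), or -0.89 ± 0.08 on the log2 scale. Ndufb11 was the member called higher, with 58.5, 61.8 and 59.9 CPM without and 63.6, 63.7 and 67.3 CPM with doxycycline, which did not overlap (0.11 ± 0.05 on the log2 scale, edgeR adjusted p = 0.04). It was not called by DESeq2 (Wald test, adjusted p = 0.14), nor with upper-quartile scaling (-0.033) or with no filter on low counts (0.04). Leaving out uninduced replicate 1, 2 or 3 (edgeR adjusted p = 0.105, 0.0515 and 0.077) or induced replicate 3 (0.166) also ended the call. The gene's span overlaps that of Rbm10, which was at 60.7 ± 1.05 CPM in uninduced and 112 ± 3.87 CPM in induced cells (SD, n = 3), and the part of Rbm10 reads in the Ndufb11 count was not tested.

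Of the 8 Ndufaf genes, whose products help to build complex I, 2 were lower, 1 higher and 5 not called, with a median of -0.16. Lower calls made up 25% and higher calls 12.5% of them, against 41.2% and 41.3% of all tested genes. Ndufaf7 was at 0.16 and not called, though its induced libraries were all above the uninduced ones. Ndufaf1, a factor for the membrane arm, was the gene called higher. It had 11.6, 11.7 and 13.1 CPM in uninduced and 19.0, 20.6 and 17.9 CPM in induced libraries, with no overlap, or 0.66 ± 0.08 on the log2 scale (SE, edgeR adjusted p = 1.29e-07), but -0.31 with library size alone. Ndufaf8 fell from 6.50 ± 0.743 to 3.44 ± 0.654 CPM (SD, n = 3), or -0.90 ± 0.15 on the log2 scale, and Ndufaf2 was at -0.38 ± 0.10.

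Complex II, succinate dehydrogenase, also works in the citric acid cycle and is encoded wholly in the nucleus. All 4 of its subunit genes were lower. Sdhd, on chromosome 9 at 50596340 to 50603849, encodes a membrane anchor of the complex. Its values were 118, 122 and 124 CPM in uninduced and 48.6, 54.4 and 55.7 CPM in induced libraries, which did not overlap. The log2 change was -1.20 ± 0.05 (SE, edgeR adjusted p = 1.96e-16). Sdhc, the partner anchor, had 79.2, 85.7 and 88.0 CPM uninduced and 58.7, 60.6 and 64.7 CPM induced, or -0.46 ± 0.05 on the log2 scale. The catalytic subunits were lowered least, Sdha, the flavoprotein, at -0.26 ± 0.05 (179 ± 2.51 to 149 ± 9.57 CPM) and Sdhb, the iron-sulphur subunit, at -0.24 ± 0.04 (126 ± 3.94 to 107 ± 3.98 CPM; SD, n = 3).

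Within a library the makeup of the complex II counts does not depend on scaling. Sdhd took 23.7%, 23.7% and 23.9% of them in uninduced and 13.3%, 15.3% and 14.3% with doxycycline. The share of Sdhc was level, at 16.5% ± 0.548 and 16.6% ± 0.494, while that of Sdha went from 35.1% ± 0.927 to 40.3% ± 1.22 and that of Sdhb from 24.6% ± 0.424 to 28.8% ± 0.478 (SD, n = 3). The 2 anchors thus moved by different amounts.

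**Figure D3:**
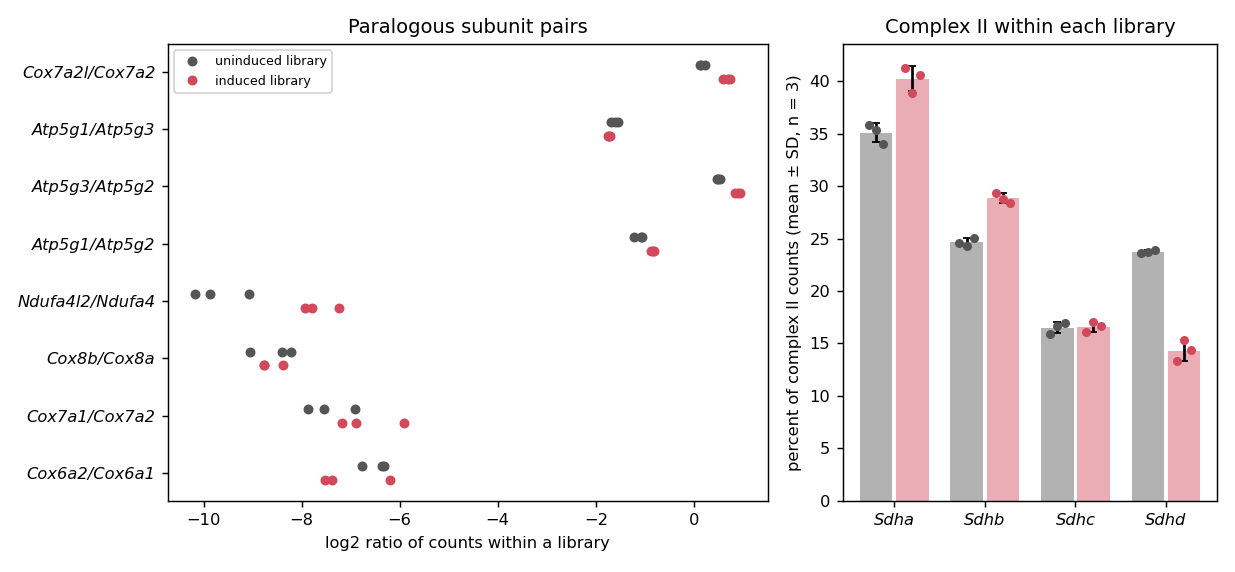
Left, log2 ratio of the counts of paralogous subunits within each library (horizontal axis) for 8 pairs (vertical axis); right, percent of complex II counts from each of its 4 genes (bars, mean ± SD of 3 libraries; points, libraries). Sdhd drops from 23.8% to 14.3% of complex II counts, and the ratio of Cox7a2l to Cox7a2 moves up in all induced libraries.

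Complex III passes electrons from ubiquinol to cytochrome c. Of its genes and Cycs, 10 in all, 7 were lower, 1 higher and 2 not called, with a median of -0.27. The largest falls were those of Uqcrb and Uqcr11, subunits of the complex without a redox centre. Uqcrb had 51.2, 55.2 and 64.2 CPM in uninduced and 29.5, 31.3 and 31.5 CPM in induced libraries, without overlap, or -0.89 ± 0.07 on the log2 scale (SE, edgeR adjusted p = 1.38e-09). Uqcr11 fell from 46.0 ± 1.23 to 26.4 ± 2.11 CPM (SD, n = 3), or -0.80 ± 0.06 on the log2 scale.

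The other genes called lower lay between -0.21 and -0.64, and Uqcrc1, a core subunit, was at 0.04 and not called. Cyc1, cytochrome c1, had 193, 202 and 209 CPM without and 179, 167 and 175 CPM with doxycycline, or -0.21 ± 0.04 on the log2 scale (SE, edgeR adjusted p = 9.43e-05). Uqcrfs1, the Rieske iron-sulphur protein, was called higher at 0.13 ± 0.05, from 82.6 ± 4.06 to 90.6 ± 3.29 CPM (SD, n = 3, edgeR adjusted p = 0.0147), but not with DESeq2's Wald test (adjusted p = 0.0549), without uninduced replicate 1 (edgeR adjusted p = 0.073) or without induced replicate 3 (0.0724). Cycs, cytochrome c itself, the mobile carrier and a trigger of apoptosis, had 198, 192 and 207 CPM uninduced and 200, 204 and 205 CPM induced. These overlapped, at a log2 fold change of 0.03 ± 0.04 (edgeR adjusted p = 0.502).

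**Figure D4:**
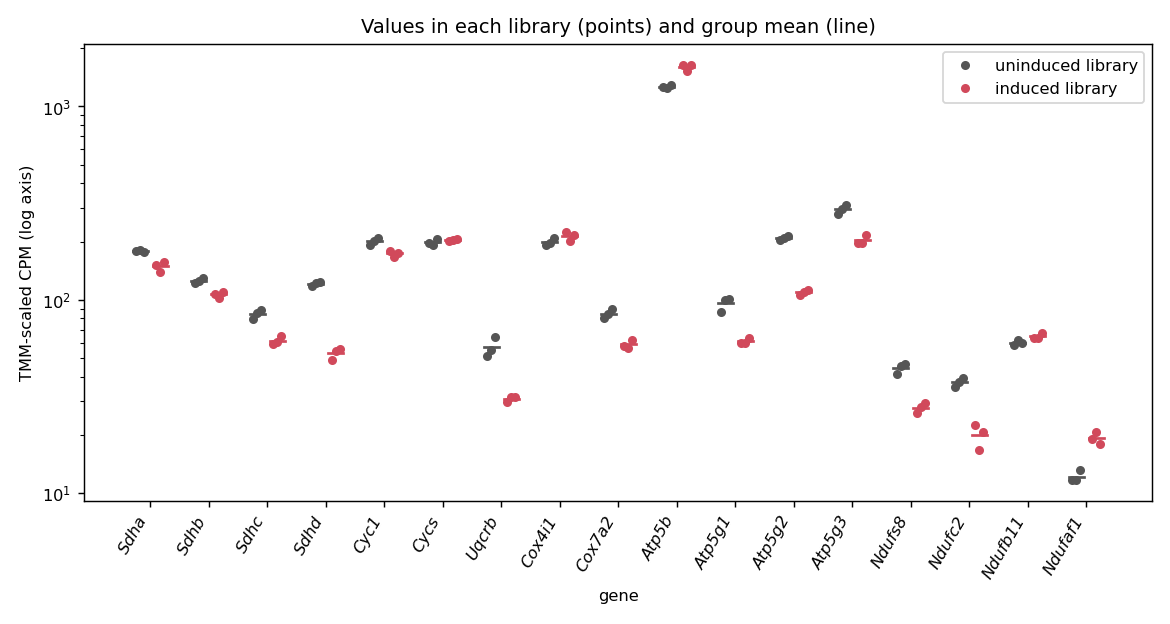
TMM-scaled CPM (vertical log axis) of 17 genes (horizontal axis) in each of the 3 uninduced (grey) and 3 induced (red) libraries, with lines at group means. Sdhd and Atp5g2 separate widely, Cycs overlaps, and Atp5b rises from 1266 to 1601 CPM.

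Complex IV, cytochrome c oxidase, had the fewest lower calls of the 5 complexes as a share of its tested genes, and this difference between complexes was not tested. Of 20 genes 5 had too few counts to test, among them Cox4i2 and Cox8c with none. Of the 15 tested 7 were lower, 2 higher and 6 not called, with a median of -0.15. The share of lower calls, 46.7%, was near the 41.2% of all tested genes, and that of higher calls was 13.3% against 41.3%. Cox7a2 had 80.1, 84.0 and 89.3 CPM in uninduced and 57.8, 56.3 and 61.9 CPM in induced libraries, with no overlap, or -0.52 ± 0.05 on the log2 scale (SE, edgeR adjusted p = 2.38e-09). Cox6c was at -0.45 ± 0.05, Cox8a at -0.34 ± 0.05 and Cox6b1 at -0.34 ± 0.05, each with groups that did not overlap.

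Cox4i1, the general form of subunit 4, had 191, 196 and 209 CPM without and 224, 202 and 216 CPM with doxycycline, which overlap. It was called higher at 0.11 ± 0.05 (SE, edgeR adjusted p = 0.032), but not by DESeq2's Wald test (adjusted p = 0.0759), and it was at -0.037 with upper-quartile scaling. Leaving out uninduced replicate 1 or 2, or induced replicate 1 or 3, also ended the call (edgeR adjusted p = 0.107, 0.119, 0.168 and 0.0885). The other member called higher, Cox7b2, named after its value was seen, had 13, 13 and 7 counts without and 13, 7 and 14 with doxycycline, a difference that exists only after scaling (log2 fold change 0.94 ± 0.39). Its call was lost with DESeq2 (adjusted p = 0.157), without uninduced replicate 3 (edgeR adjusted p = 0.124) and without induced replicate 1 or 3 (0.0928 and 0.124). Cox6a1, Cox7a2l and Ndufa4 were at 0.05, -0.02 and -0.09 and were not called.

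Several complex IV subunits come as a general form and a form of heart and skeletal muscle. The muscle forms were scarce, at 1.42 ± 0.273 CPM for Cox6a2, 0.489 ± 0.177 CPM for Cox7a1 and 0.458 ± 0.147 CPM for Cox8b in uninduced cells (SD, n = 3). Per kilobase of transcript, Cox6a1 stood at 223 and Cox6a2 at 2.09 CPM in uninduced cells. Cox6a2 had 37, 49 and 48 counts uninduced and 14, 10 and 31 induced; it was at -0.38 ± 0.30 and not called (edgeR adjusted p = 0.255), but at -0.95 without induced replicate 3 (adjusted p = 0.0133). Beside these, 8 of 9 tested myotube markers were lower and 1 higher, their summed level lying between 1029 and 1066 CPM without doxycycline and between 695 and 790 CPM with it. The part of this in the isoform counts was not tested.

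The ratio of a pair of paralogues within a library is free of scaling, and 8 of 10 listed pairs had at least 10 counts for each gene over the 6 libraries. With 3 libraries a group the smallest exact permutation p is 0.1, two-sided, so no pair could pass 0.05. Adjusted over the 8 pairs by Benjamini-Hochberg, a permutation p of 0.1 came to 0.16 here. The log2 ratio of Cox7a2l, a supercomplex factor, to Cox7a2 was 0.23, 0.15 and 0.12 without and 0.70, 0.73 and 0.59 with doxycycline (exact permutation p = 0.1). Ndufa4l2 to Ndufa4 went from -9.70 ± 0.565 to -7.66 ± 0.365 (SD, n = 3), also without overlap. Levels of single genes separated often, 41.5% of all tested genes upward and 41.7% downward. How often ratios of other gene pairs separate was not tested. Ndufa4l2 itself had 7, 3 and 4 counts uninduced and 9, 7 and 14 induced, and its span overlaps the more abundant Shmt2, at 149 ± 7.20 and 170 ± 6.80 CPM (SD, n = 3). For the muscle forms Cox6a2, Cox7a1 and Cox8b the ratios to the general form overlapped between the groups (exact permutation p = 0.4, 0.2 and 0.9).

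Complex V, the ATP synthase, had the most lowered median of the complexes, -0.63, with 13 of 17 genes lower, 3 higher and 1 not called. Without Atp5sl, grouped here by symbol only, 13 of 16 were lower and 2 higher. Its catalytic head and its membrane part both fell for the most part. Of the 5 head (F1) genes 4 were lower and 1 higher, and of 10 membrane and stalk genes 8 were lower and 1 higher. The outlying member of the head was Atp5b, on chromosome 10 at 128083307 to 128090388, which encodes the catalytic beta subunit and was the most abundant of the 95 genes. Atp5b had 1262, 1251 and 1285 CPM without and 1634, 1526 and 1644 CPM with doxycycline. The groups did not overlap and the log2 change was 0.34 ± 0.04 (SE, edgeR adjusted p = 3.84e-08). With library size as the only scaling it was at -0.63.

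All 4 other subunits of the same head were lower. Atp5a1, the alpha subunit, which pairs with the beta subunit, had 689, 704 and 715 CPM uninduced and 651, 607 and 646 CPM induced, or -0.15 ± 0.04 on the log2 scale (SE). The gamma (Atp5c1), delta (Atp5d) and epsilon (Atp5e) subunits were at -0.60, -0.71 and -0.76. As a share of the counts of the 95 genes, Atp5b rose in all induced libraries, from 15.2%, 14.6% and 14.5% to 21.5%, 20.9% and 21.3%. Complex V as a whole took 43.2% ± 0.323 and 45.6% ± 0.143 of these counts, whereas its genes other than Atp5b took 28.4% ± 0.0893 and 24.4% ± 0.154 (SD, n = 3). With Atp5b left out of the total as well, these were 33.3% ± 0.108 and 31.0% ± 0.0806 of the counts of the other genes. The rise in the share of complex V therefore rested on this gene. It is a share of the counts of the 95 genes and not a rise of the complex, of whose 17 genes 13 were lower.

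The c-ring, which rotates as protons pass, is built from one peptide encoded by Atp5g1, Atp5g2 and Atp5g3, and all 3 genes fell. Atp5g2, on chromosome 15 at 102662868 to 102671047, had 203, 209 and 214 CPM uninduced and 106, 109 and 112 CPM induced, or -0.94 ± 0.04 on the log2 scale (SE, edgeR adjusted p = 6.01e-16). Atp5g1 fell from 95.8 ± 8.01 to 61.1 ± 2.26 CPM and Atp5g3 from 294 ± 14.9 to 203 ± 11 CPM (SD, n = 3), or -0.65 ± 0.06 and -0.54 ± 0.05 on the log2 scale. The log2 ratio of Atp5g3 to Atp5g2 moved from 0.49 ± 0.035 to 0.89 ± 0.0548 (SD, n = 3, exact permutation p = 0.1). The groups did not overlap, and that of Atp5g1 to Atp5g2 moved the same way, from -1.12 to -0.83.

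Of the remaining complex V genes, Atp5s was lowest at -1.24 ± 0.28 with few counts (51, 57 and 65 uninduced, 10, 9 and 20 induced). Atp5h, a stalk subunit with 3 processed pseudogene copies, named after its value was seen, was higher at 0.21 ± 0.05, from 80.4 ± 4.43 to 92.8 ± 2.25 CPM (SD, n = 3), but was not called with upper-quartile scaling (0.062, edgeR adjusted p = 0.244) and was at -0.76 with library size alone. Atp5sl, placed here by its symbol although its product (DMAC2) helps to assemble complex I, was called higher at 0.24 ± 0.11 (edgeR adjusted p = 0.0409), but not by DESeq2's Wald test (adjusted p = 0.174), nor without uninduced replicate 1 or 3 (edgeR adjusted p = 0.123 and 0.0898) or induced replicate 1, 2 or 3 (0.0585, 0.12 and 0.0509). Atp5o, which joins the head to the stalk, was at 0.02 and not called.

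A feature the symbol rule did not use, the coding length, varied with the change across the 90 genes. Spearman's rho was 0.34 over these genes and 0.11 over 12420 tested genes with a transcript in GENCODE, as a description, since all points share the same 6 libraries. Genes with under 300 coding bases had a median of -0.45 with 17 of 22 lower (77.3%), and those of 900 bases or more a median of -0.08 with 6 of 16 lower (37.5%) and 2 higher. Over the 74 genes under 900 bases rho was 0.12, so the relation rested on the 16 longest. All tested genes showed medians of -0.45 under 300 and 0.05 from 900 bases upward, with 66.5% and 38.6% lower, so the share of lower calls in the longest class was near the background. From 300 to 450 bases the medians were -0.54 here and -0.24 over all tested genes, with 76% and 52.9% lower. From 450 to 900 bases they were -0.36 and -0.17, with 70.4% and 48.3% lower. For transcript length rho was 0.20, for GC content -0.10 and for the uninduced level 0.09 among the 90 genes.

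**Figure D5:**
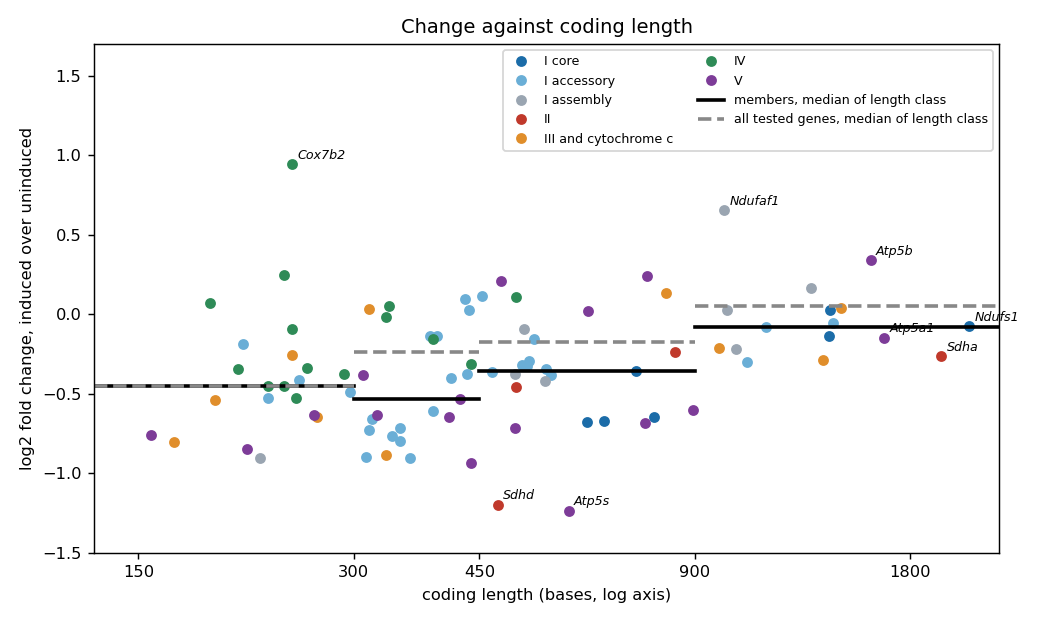
Log2 fold change (vertical axis) against coding length (horizontal log axis, bases) of the 90 tested genes, coloured by complex, with medians of 4 length classes for these genes (black) and for all tested genes (grey, dashed). Both medians are -0.45 under 300 bases, and in the longest class they are -0.08 and 0.05.

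Copies of these genes elsewhere in the genome can share their reads. A processed pseudogene matching the coding sequence at 95% identity over at least 80% of its length was annotated for 22 of the 95 genes, up to 7 for Atp5l, and Uqcrb, Cycs and Atp5g2 are among them. Of these 22 genes 15 were lower and 2 higher (median -0.53), and of the 68 tested without such a copy 46 were lower and 6 higher (median -0.32). Spans of 16 genes overlapped another gene with counts, and among the 76 tested without such an overlap 50 were lower and 7 higher.

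Genes that work beside these subunits were taken from fixed lists. The counts below stand beside 41.2% lower and 41.3% higher among all tested genes. Of 41 tested assembly factors under other symbols 25 were lower and 9 higher, with a median of -0.43. Tmem186, an assembly factor of complex I, fell from 14.5 ± 1.23 to 4.58 ± 0.277 CPM, and Sdhaf3, one of complex II, was higher, from 2.84 ± 0.285 to 8.49 ± 0.638 CPM (SD, n = 3). The 4 ATP synthase parts and regulators under other symbols were all lower, with a median of -0.54, Minos1 among them at -0.89 ± 0.05 (Minos1 belongs to the cristae junction complex that shapes the inner membrane). Of 13 import genes 8 were lower and 4 higher, with Timm22 at -0.90 ± 0.07 and the chaperonin gene Hspd1 at 0.40 ± 0.04, the latter at -0.56 with library size alone.

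Citric acid cycle genes, in contrast, centred on -0.02, with 4 of 13 lower and 3 higher. Ogdh, a subunit of the alpha-ketoglutarate dehydrogenase complex, rose from 166 ± 7.07 to 357 ± 23.5 CPM and Idh3b fell from 75.4 ± 1.51 to 54.9 ± 0.978 CPM (SD, n = 3). Carriers and quinone-linked enzymes had 8 of 19 lower and 6 higher (median -0.06), from Coq2, an enzyme of ubiquinone synthesis, at -1.34 ± 0.10 to the sulphide oxidase Sqrdl at 1.24 ± 0.10. Genes for the expression of mitochondrial DNA had 2 of 11 lower and 5 higher (median 0.07), with Polg2, a polymerase subunit, at 1.54 ± 0.12 and Tfb1m at -0.74 ± 0.17. Lower calls made up 30.8%, 42.1% and 18.2% of the tested genes of these lists in turn, against 41.2% of all tested genes. Higher calls made up 23.1%, 31.6% and 45.5%, against 41.3%. Whether these lists differ from the subunit genes was not tested. Transcripts of the 13 subunits encoded in mitochondrial DNA were not analysed here.

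Of 10 tested transcriptional regulators of the pathway 5 were higher and 3 lower, with a median of 0.08, beside 41.3% higher and 41.2% lower among all tested genes. Pprc1, a coactivator, rose from 70.9 ± 1.19 to 128 ± 3.48 CPM (SD, n = 3), or 0.85 ± 0.04 on the log2 scale, but it was at -0.11 with library size alone, and Gabpb2, a partner of GABPA, fell by 0.79 ± 0.07. The factors whose cores were searched, named for that reason, were Nrf1 at 0.68 ± 0.05, Yy1 at 0.85 ± 0.05 (-0.29 and -0.11 with library size alone) and Gabpa at 0.00 ± 0.05 (not called, edgeR adjusted p = 0.987). Ppargc1a, the coactivator of mitochondrial biogenesis in muscle, named after its value was seen, had only 0.705 ± 0.107 and 0.647 ± 0.205 CPM (SD, n = 3).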

How the data were processed

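Per the submitters' processing notes, CASAVA, TopHat2 2.0.12, Bowtie2 2.2.3 and the mm10 build were used, with no order given. The deposited table holds raw counts of reads per gene, made by the authors, for 24028 Entrez genes in 6 libraries. Not given in the sources used here: the counter, its use of strand, its treatment of reads with several positions, and the annotation. Groups were taken from the sample titles, and the series text gives separate cultures. Counts were analysed in R 4.3.3 with edgeR 4.0.16 (filterByExpr, TMM, robust glmQLFit, glmQLFTest, two-sided, group as the only term), adjusted by Benjamini-Hochberg over 12969 genes, with a threshold of 0.05. The code of the test was run on simulated counts in which few genes changed. That setting lacks the broad shift between these groups, so it does not bear on the choice of scaling. SE is the log2 fold change over the square root of F. Alternatives included DESeq2 1.42.0 and limma-voom (limma 3.58.1). Members and gene lists were chosen with earlier results of these data known.

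Genes given in full were, in each class, the 2 largest rises and falls past the threshold with a mean of at least 1 CPM, all Sdh genes, Cyc1, Cycs and the paralogue pairs, and from each other list the largest rise and fall. Ratios of paralogues used counts plus 0.5. Coordinates and promoters came from RefSeq on GRCm38.p6, the assembly of mm10, which matched all 95 genes, and lengths and pseudogenes from GENCODE on the same assembly, where a transcript length is the median over basic coding transcripts. Protein sequences were not used here.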

Additional observations from a re-analysis of the deposited data

How the results depend on the processing

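With the DESeq2 Wald test 59 were lower and 4 higher, without the low-count filter 67 and 5 (median -0.42), at an adjusted p of 0.01 58 and 3, with upper-quartile scaling 74 and 2 (median -0.49), and by library size alone 88 and 0 (median -1.31). Leaving out each library in turn gave 59 to 64 lower and 3 to 7 higher, with a median of -0.40 to -0.31. Genes whose groups did not overlap then numbered 8 to 13 higher, and 2 with upper-quartile and 0 with library-size scaling. Over all tested genes 1977 were higher and 9949 lower with library size alone, and in the other mitochondrial lists 4 higher and 105 lower, against 32 and 54, with 20 higher by upper-quartile scaling. With library size alone Ndufb11 was at -0.85, Ndufaf1 at -0.31, Cycs at -0.93, Uqcrfs1 at -0.83, Cox6a1 at -0.91, Cox4i1 at -0.85, Atp5sl at -0.72, Atp5b at -0.63, Atp5h at -0.76, Cox7b2 at -0.011, Nrf1 at -0.29, Yy1 at -0.11, Pprc1 at -0.11 and Hspd1 at -0.56, and with upper-quartile scaling Ndufb11 at -0.033, Cycs at -0.12, Uqcrfs1 at -0.012 and Cox4i1 at -0.037. RLE scaling, limma-voom, a filter at a mean of 1 CPM and removal of repeated families kept 60 or 61 of the lower and 7 or 8 of the higher genes; where a call was lost to scaling or to a left-out library, the cause was not tested. Nothing ties the replicate numbers to a shared dish or day, and deviations of same-numbered libraries correlated at 0.06, 0.017 and 0.033, each the best match of its number. With a replicate block 63 were lower and 8 higher.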
